A study of Mus musculus with 54 samples.

Results

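The brain response to Cmpd60 was compared between mice of 20 months and mice of 6 to 7 months. Libraries were chosen by their labels and not by measured values: 22 of the 54 samples in the series, 12 from wild-type aged brain and 10 from brain of control littermates of a dementia line. Cmpd60 is a small molecule that inhibits the histone deacetylases HDAC1 and HDAC2. The study asked whether short treatment late in life alters aging tissues and, in the dementia line, whether it alters the brain before symptoms are complete.

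All 22 mice were male, of BL6 background and housed singly on regular chow, and each received an injection into the abdomen every day for 14 days. Treated mice received Cmpd60 at 22.5 mg/kg, and vehicle mice received the carrier of DMSO, PEG400 and saline. The aged cohort gave libraries of 6 wild-type mice of about 20 months that received Cmpd60 and of 6 that received vehicle, a group for which the study's methods state 7 mice. In the littermate cohort, 5 control littermates of APPSWE-1349 mice, 6 to 7 months old and without the transgene for the Swedish form of human amyloid precursor protein, received Cmpd60 and 5 received vehicle. For the littermates the age comes from the series design, and the growth protocol in the labels gave 20 months for all samples. Neither cohort was sampled at another age or dose, and the brain region taken was not stated. Age, mouse line, cohort and any batch of preparation coincide here, so they cannot be told apart in a difference between the cohorts.

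Messenger RNA was captured on oligo-dT beads and sequenced, and reads were counted per gene. The 6 aged vehicle libraries held at least 26402957, in the median 28188598 and at most 32344641 counts on genes, and the 6 aged Cmpd60 libraries 29646412, 38855584 and 57430113. Littermate vehicle libraries s149, s150, s151, s154 and s155 held 27294926, 37844133, 27519596, 25339773 and 25119590 counts. Littermate Cmpd60 libraries s152, s153, s156, s157 and s158 held 32275903, 31680742, 27887212, 25052335 and 35598682. All littermate values follow in these orders of library number. Levels are given in CPM, the counts of a gene relative to all counts on genes of its library, after scaling of the libraries, and 3 counts, taken as the floor of detection for counting error alone, corresponded to 0.0522 to 0.120 CPM.

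Littermate libraries held fewer detected genes than aged libraries and varied more among themselves. At least 1 count was found for 24939 to 28017 genes in the 12 aged libraries, 24939 to 25861 with vehicle and 25850 to 28017 with Cmpd60. The littermate vehicle libraries detected 23151, 19669, 22393, 18804 and 15044 genes and the littermate Cmpd60 libraries 15084, 24167, 21743, 23014 and 24821. Vehicle library s155 and Cmpd60 library s152 stood apart, with median correlations to the libraries of their own group of 0.910 and 0.912 against 0.975 to 0.994 for the other 20.

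Histone deacetylases remove acetyl groups from histone tails, which packs chromatin more tightly and generally lowers transcription. HDAC1 and HDAC2 work as the catalytic pair of the Sin3, NuRD and CoREST complexes. In neurons HDAC2 in particular restrains genes of synaptic plasticity and memory, and inhibitors of these enzymes raise histone acetylation in brain.

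The tissue label held in both cohorts. Markers of each major brain cell type were present, and none of the markers in the lists for neurons, astrocytes, oligodendrocytes or microglia was without counts. Snap25, which drives fusion of synaptic vesicles, stood at 2443 ± 116 CPM (SD, n = 6) in aged and 2685 ± 129 CPM (SD, n = 5) in littermate vehicle brain. For the glutamate transporter of astrocytes, Slc1a2, the levels were 2029 ± 121 and 2101 ± 203 CPM. Myelin basic protein, Mbp, stood at 3164 ± 253 and 3159 ± 384 CPM. Markers of cortex, striatum, thalamus and cerebellum each passed 10 CPM in both cohorts, 12 of 12, 10 of 12, 7 of 8 and 11 of 12 genes, so the libraries held RNA of several regions.

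The transcripts of the enzymes that Cmpd60 inhibits came first, and none of them was called in either cohort. Hdac1 stood at 22.9 ± 1.05 CPM with vehicle and 23.3 ± 3.29 CPM with Cmpd60 in aged brain (SD, n = 6). Littermate Hdac1 levels were 10.6, 18.4, 15.5, 21.6 and 27.9 CPM with vehicle and 32.5, 24.1, 22.2, 12.8 and 19.2 CPM with Cmpd60. Both groups overlapped in both cohorts, and the effects differed by -0.21 ± 0.276 (log2, SE), with a 95% interval of -0.79 to 0.37. Hdac2 had log2 fold changes of 0.04 in aged and -0.08 in littermate brain, a difference of 0.11 ± 0.0993 (SE) with an interval of -0.10 to 0.32. Hdac3, catalytic in the separate NCoR complex, had values of 0.07 and -0.02.

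Transcripts of the partner proteins of HDAC1 and HDAC2 were read against all genes of their level. Of 38 genes listed for the Sin3, NuRD and CoREST complexes, 35 reached a mean of 10 CPM in both cohorts. Among all genes of that level, 8.68% were higher and 9.07% lower in aged brain and 1.59% and 1.58% in littermates at an unadjusted p below 0.05, and 2.2% and 3.47% had a positive or negative difference. In aged brain 1 of the 35, Arid4b, was higher and 4 were lower at an unadjusted p below 0.05, and in littermates 0 were either (0 also passed for the difference of the effects, all by edgeR). The lower genes were Mbd3 and Sin3a, scaffolds of NuRD and Sin3, and the Sin3 components Suds3 and Sap30l. Mbd3 had log2 fold changes of -0.25 ± 0.0703 in aged and -0.23 ± 0.114 in littermate brain (SE, unadjusted p = 0.00219 and 0.0591). Median log2 fold changes over the 35 were 0.01 and -0.03, and 20 of 35 had the same direction. Of 8 other deacetylases, only Hdac7 passed, higher in aged brain (0.19), and none passed in littermates. Among 16 acetyltransferases and acetyl readers, 1 was higher and 4 lower in aged brain and 0 passed in littermates. The effects on the acetyltransferase genes Kat2b and Kat6a differed between cohorts at an unadjusted p below 0.05. Kat2b had effects of -0.19 in aged and 0.20 in littermate brain, where it did not pass, a difference of -0.40 ± 0.165 (SE, unadjusted p = 0.0227, adjusted p = 0.613).

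Genes were counted first in each cohort alone, and each p-value sets an effect against the spread between libraries, each of 1 mouse. In aged brain 5 of 24438 tested genes (0.0205%) passed an adjusted p below 0.05 by edgeR, and in littermates 0 of 21589 (0%). DESeq2 called 429 and 2 genes and limma-voom 2 and 0 in aged and littermate brain. An unadjusted p below 0.05 was reached by 3368 aged and 636 littermate genes. At an unadjusted p below 0.01, the threshold of the study, 1048 aged genes (4.29%), 552 higher and 496 lower, stood against 69 littermate genes (0.32%), 47 higher and 22 lower. The aged call count rested on single libraries: without vehicle library 29 it was 372, without Cmpd60 library 36 it was 36, and without Cmpd60 libraries 33 or 34 or vehicle libraries 27, 28, 31 or 32 it was 1, Rab26. It was 2 without Cmpd60 library 35 or vehicle library 30, 3 without Cmpd60 library 37 and 8 without Cmpd60 library 38. By edgeR it was 0 with the number of detected genes as a covariate and 0 in 1 fit of all 22 libraries, with 470 and 134 genes at an unadjusted p below 0.01. In aged brain the number of detected genes nearly followed treatment, so the fit with this covariate cannot separate it from the Cmpd60 effect. The fit of all 22 libraries took 1 spread for both cohorts, so its aged counts also carry the wider littermate spread.

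Spread between libraries, each of 1 mouse, was wider in littermates. The biological coefficient of variation, over all genes tested, was 0.114 in aged and 0.649 in littermate brain. Spread between mice and library quality cannot be told apart in these values, and s152 and s155 held the fewest detected genes. Over the 10193 genes with a mean of at least 10 CPM in both cohorts, the median standard error of the log2 fold change was 0.0632 in aged and 0.155 in littermate brain, 2.45 times as large. A count of 0 called genes in littermates does not show that the 2 cohorts responded differently. The difference of the effects was tested directly for 25320 genes over all 22 libraries. That fit took 1 spread for both cohorts, although spread was wider in littermates. Standard errors, intervals and p of the differences rest on this shared spread, and for a given gene they can be too small or too large. By edgeR 0 differences (0%) passed an adjusted p below 0.05, with a smallest adjusted p of 0.160. An unadjusted p below 0.05 was reached by 1861 genes and a p below 0.01 by 422 (1.67%), 113 positive and 309 negative. DESeq2 called 7 differences and limma-voom 0. Of the 7, Aqp4, Anxa7 and Lgr4 were among the 10193 genes, and the rest, Gm10709 among them, were not.

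The effect of Cmpd60 pointed the same way in both cohorts for a small majority of genes. Of the 10193 genes, 5609 had the same sign and 4584 opposite signs, so 55.0% were shared. Pearson's r of the log2 fold changes across these genes was 0.16 and Spearman's correlation 0.14. The points share libraries, and genes are not independent replicates, so no p is given. Leaving out the pituitary hormone gene Gh, which was very high in 1 treated library of each cohort, r was 0.14. Without vehicle library s155 and Cmpd60 library s152 together, 59.1% had the same sign and r was 0.34 (0.29 without Gh). Leaving out Cmpd60 library s157 alone, r was 0.0463 (0.146 without Gh). With the number of detected genes as a covariate, r was 0.047.

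**Figure D1:**
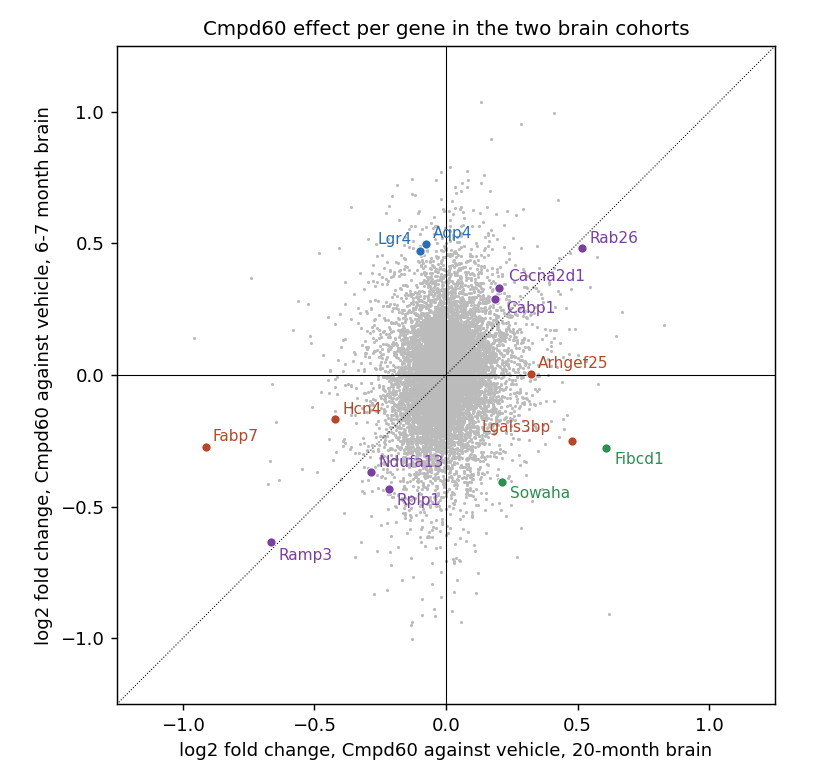
Log2 fold change with Cmpd60 against vehicle in littermate brain (vertical axis) and aged brain (horizontal axis) for 10192 genes with a mean of at least 10 CPM in both cohorts, 14 of them labelled. Rab26 lies high in both cohorts, Ndufa13 and Ramp3 low in both, Aqp4 and Lgr4 above zero in littermates only and Fibcd1 on opposite sides, while Gh lies outside the axes.

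Sharing of direction was more frequent among genes that passed an unadjusted p below 0.05. In aged brain 885 of the 10193 (8.68%) were higher and 924 (9.07%) lower, and 1089 of these 1809 (60.2%) had the same sign in littermates. Littermate brain gave 162 higher (1.59%) and 161 lower (1.58%), and 231 of these 323 (71.5%) had the same sign in aged brain. Genes that passed in both numbered 60. Of these, 51 had the same direction, 28 higher and 23 lower, which is 2.82% of the aged and 15.8% of the littermate genes. The other 9 had opposite directions. The 51 were 29 without littermate Cmpd60 library s153, 32 and 33 without aged Cmpd60 libraries 34 and 33, and 94 without littermate Cmpd60 library s157. Without libraries s152 and s155 together, 109 genes shared direction and 7 opposed.

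Genes named here follow a rule that took, from each comparison and from the 51, the 6 higher and 6 lower genes with the smallest p, and 2 to 4 members of each gene list. Of the 5 genes called in aged brain, Rab26 was the one among the 51. It encodes a small GTPase that gathers synaptic vesicles for autophagy, the route by which nerve terminals clear used vesicles. Rab26 in aged brain stood at 19.2, 20.8 and 22.03 CPM (lowest, median and highest) with vehicle and 25.6, 30.7 and 31.8 CPM with Cmpd60. Littermate Rab26 levels were 25.4, 15.2, 17.8, 15.8 and 19.9 CPM with vehicle and 32.5, 23.3, 23.9, 30.2 and 22.2 CPM with Cmpd60. Every treated aged library lay above every aged vehicle library, while in littermates 2 of 5 treated libraries, s152 and s157, did so and the rest overlapped with vehicle library s149. Rab26 rose in aged brain by 0.52 ± 0.0633 (log2, SE, edgeR adjusted p = 0.00375), the only gene called in each set of 11 aged libraries. It was not called with the number of detected genes, which nearly followed treatment, as a covariate (adjusted p = 0.152). Nor was it called in the fit of all 22 libraries, with 1 spread for both cohorts (adjusted p = 0.846). In littermates it was higher by 0.48 ± 0.194 (SE, unadjusted p = 0.0247), a p of 0.0636 without vehicle library s150, 0.0521 without s151, 0.0590 without s154 and 0.0667 without Cmpd60 library s157. Effects in the cohorts differed by 0.03, with a 95% interval of -0.35 to 0.41 (unadjusted p = 0.880). Its adjusted p in littermates was 0.999, as for every littermate gene named here.

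Ndufa13 and Rplp1 were lower in both cohorts. Ndufa13 encodes a subunit of respiratory complex I, which passes electrons from NADH into the respiratory chain. Ndufa13 in aged brain stood at 82.2, 94.4 and 117 CPM with vehicle and 63.1, 78.5 and 93.2 CPM with Cmpd60. Littermate Ndufa13 levels were 61.8, 76.3, 72.6, 78.3 and 68.1 CPM with vehicle and 56.1, 48.7, 51.7, 63.7 and 58.2 CPM with Cmpd60. The groups overlapped in both cohorts, although in littermates 4 of 5 treated libraries, all but s157, lay below every vehicle library. Its log2 fold changes were -0.28 ± 0.0875 in aged and -0.37 ± 0.111 in littermate brain (SE, unadjusted p = 0.00441 and 0.00439), and the effects differed by 0.08 (95% interval -0.22 to 0.37). Rplp1, an acidic protein of the ribosomal stalk that recruits elongation factors, stood at 255, 281 and 334 CPM with vehicle and 201, 245 and 292 CPM with Cmpd60 in aged brain. Littermate Rplp1 levels were 192, 258, 231, 224 and 334 CPM with vehicle and 235, 149.2, 172, 168 and 201 CPM with Cmpd60. Treated libraries s153, s156 and s157 lay below every littermate vehicle library, while s152 and s158 overlapped with them. Its log2 fold changes were -0.22 and -0.43, and reads of such ribosomal genes can be split with near-identical pseudogenes.

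Ramp3 and Spr were lower in both cohorts as well. Ramp3 encodes a membrane protein that sets the ligand specificity of calcitonin-family receptors and marks part of the thalamus. Ramp3 in aged brain stood at 12.5, 15.3 and 28.1 CPM with vehicle and 8.26, 10.6 and 13.3 CPM with Cmpd60. Littermate Ramp3 levels were 15.4, 16.1, 15.6, 17.2 and 24.1 CPM with vehicle and 6.56, 13.5, 11.4, 12.0 and 13.9 CPM with Cmpd60. All 5 treated littermate libraries lay below all 5 vehicle libraries, and in aged brain the groups overlapped narrowly. Log2 fold changes were -0.66 ± 0.172 and -0.63 ± 0.252 (SE, unadjusted p = 0.00109 and 0.0234), with a difference of -0.04 (95% interval -0.67 to 0.60). Spr encodes sepiapterin reductase, the last enzyme in the synthesis of tetrahydrobiopterin, which dopamine and serotonin synthesis require. Spr in aged brain stood at 30.7, 32.5 and 35.5 CPM with vehicle and 22.1, 27.2 and 32.4 CPM with Cmpd60. Littermate Spr levels were 39.6, 34.0, 33.5, 42.8 and 38.9 CPM with vehicle and 20.5, 25.6, 25.7, 36.6 and 31.7 CPM with Cmpd60. Treated littermate libraries s152, s153, s156 and s158 lay below every vehicle library and s157 overlapped, and its log2 fold changes were -0.28 and -0.44. Mrps25 of the mitochondrial ribosome (-0.20 and -0.45) and Ndufb10 of complex I (-0.20 and -0.39) completed the lower group under the naming rule.

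Cabp1 and Cacna2d1 were higher in both cohorts. Cabp1 encodes a neuronal relative of calmodulin that tunes calcium channels and inositol trisphosphate receptors. Cabp1 in aged brain stood at 122, 128 and 138.6 CPM with vehicle and 123, 146.6 and 170.2 CPM with Cmpd60. Littermate Cabp1 levels were 118, 112, 114, 106 and 112 CPM with vehicle and 161, 134, 118, 146.99 and 131 CPM with Cmpd60. Treated littermate libraries s152, s153, s157 and s158 lay above every vehicle library and s156 just under the highest, while the aged groups overlapped. Its log2 fold changes were 0.19 ± 0.0661 and 0.29 ± 0.0919 (SE, unadjusted p = 0.0113 and 0.00646), and the effects differed by -0.11 (95% interval -0.34 to 0.12). Cacna2d1 encodes the auxiliary calcium channel subunit that brings channels to the synapse and binds gabapentin. Cacna2d1 in aged brain stood at 167, 191 and 195 CPM with vehicle and 181, 214 and 265 CPM with Cmpd60. Littermate Cacna2d1 levels were 163, 150.03, 180.5, 169 and 119 CPM with vehicle and 181, 211, 217, 172 and 208 CPM with Cmpd60. In littermates all treated libraries but s157 lay above every vehicle library, and in aged brain the groups overlapped. Its log2 fold changes were 0.20 and 0.33. Gga2, a clathrin adaptor of the Golgi (0.14 and 0.48), Abcc9, the sulfonylurea receptor subunit of potassium channels in pericytes (0.28 and 0.95), and the little-described AI593442 (0.23 and 0.27) completed the higher group. Without s152 the littermate values of Abcc9 and Gga2 were 0.61 and 0.31. The aged value of Abcc9 was 0.18 without library 34, and that of AI593442 was 0.13 without library 33.

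**Figure D2:**
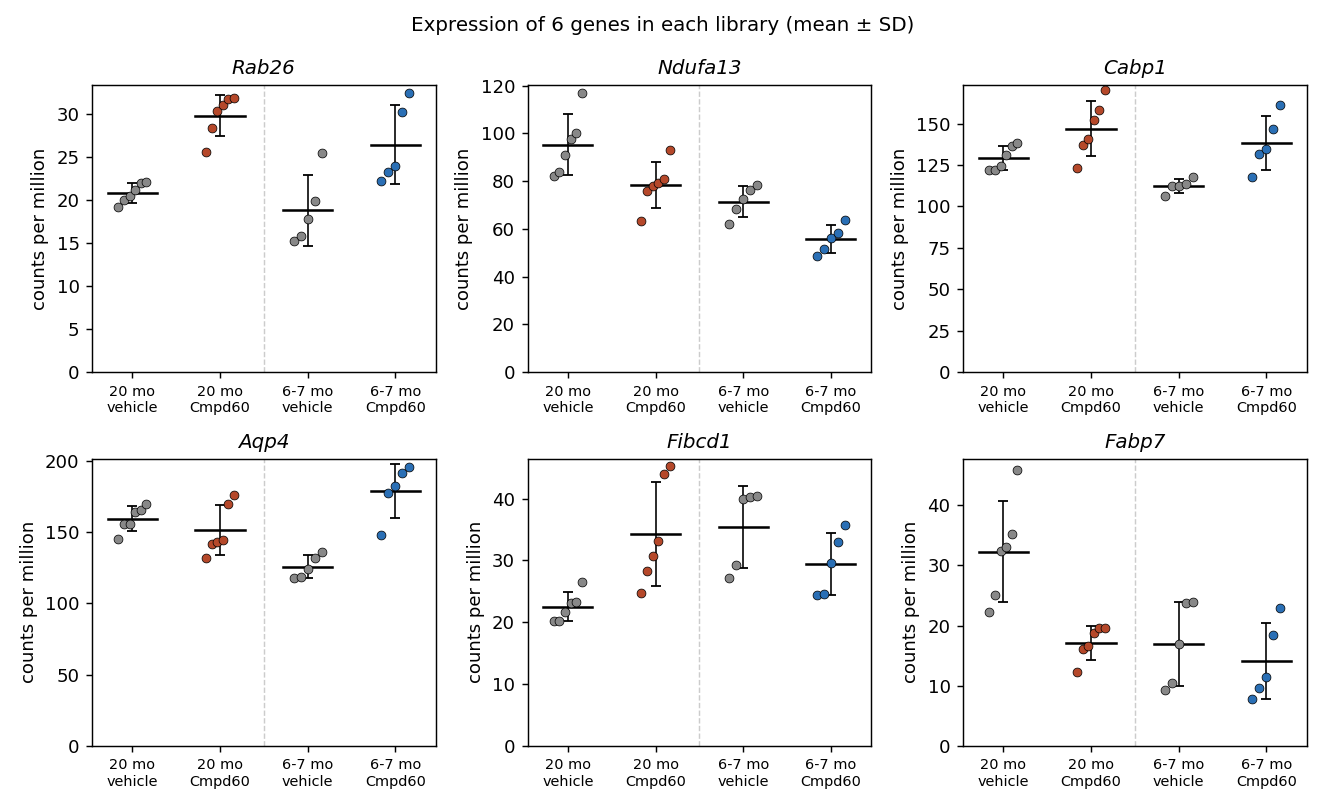
CPM of Rab26, Ndufa13, Cabp1, Aqp4, Fibcd1 and Fabp7 in each of the 22 libraries, by cohort and treatment, with bars at mean ± SD. Treated and vehicle libraries separate for Rab26 and Fabp7 in aged brain and for Aqp4 in littermate brain.

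Further genes of the 51 are named here after their values were seen. The potassium channel gene Kcnk2 was higher (0.14 aged and 0.32 littermate). Shank3, a scaffold of excitatory synapses, was lower (-0.15 and -0.18). Kmt2e (0.21 and 0.20), Mef2d (0.16 and 0.19) and Tbl1x (0.17 and 0.28) were higher, and Hmgb1 (-0.17 and -0.47) was lower. Also lower were Txn2 (-0.16 and -0.33), Glrx5 (-0.16 and -0.53) and Uqcrq (-0.19 and -0.31). These are single genes, and a function shared among the 51 was not tested. With 1 library left out, the aged p of Abcc9 and that of Ndufb10 each missed 0.05 in 3 of 12 fits. The aged p of AI593442 did so in 2 and that of Mrps25 in 1. The littermate p missed 0.05 in 1 of 10 fits each for Abcc9, AI593442, Gga2 and Mrps25. None of the 51 other than Rab26 passed the adjusted threshold in either cohort by edgeR.

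Promoters of the genes that moved the same way in both cohorts are shown because these enzymes act on chromatin at gene promoters. RefSeq sequences of 250 bases before to 50 bases after the gene start on build GRCm38.p6 were found for 10 of the 12 genes that the naming rule chose from the 51, all but Rab26 and Rplp1. Printed are 4, the first 2 lower and the first 2 higher by the rule. They lie at chr8:69901971-69902270 (minus strand), chr6:85137715-85138014 (minus strand), chr5:115194332-115194631 (minus strand), for the first of 2 listed starts, and chr5:15934441-15934740 (plus strand). GGGCGG, the GC box bound by Sp factors, TGACGTCA, the cAMP response element, and ACGTG, part of the hypoxia element, were searched on both strands, and a match is a description and not a site. GGGCGG occurred in 8 of the 10, all but Mrps25 and Ndufb10, and in 35.66% of all 32851 promoters. These sets are unlike, since the 10 genes had to reach 10 CPM in both cohorts and the 32851 promoters were taken at any level. No share was taken among genes of that level, so the shares do not show an enrichment. The printed promoters held 3 matches in Ndufa13, 2 in Spr, 2 in Cabp1 and 7 in Cacna2d1. TGACGTCA was in 0 of the 10 and ACGTG in 2, Ndufb10 and Gga2, against 1.79% and 19.62% of all promoters, and the palindrome CACGTG would have counted as ACGTG on both strands. Capitals mark GGGCGG or its complement CCGCCC.
Ndufa13: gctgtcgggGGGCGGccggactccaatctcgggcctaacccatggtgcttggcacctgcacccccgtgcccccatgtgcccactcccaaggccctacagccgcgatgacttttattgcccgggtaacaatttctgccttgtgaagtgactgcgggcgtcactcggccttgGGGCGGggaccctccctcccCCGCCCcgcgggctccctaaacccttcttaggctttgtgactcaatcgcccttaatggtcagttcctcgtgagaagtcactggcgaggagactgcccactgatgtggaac
Spr: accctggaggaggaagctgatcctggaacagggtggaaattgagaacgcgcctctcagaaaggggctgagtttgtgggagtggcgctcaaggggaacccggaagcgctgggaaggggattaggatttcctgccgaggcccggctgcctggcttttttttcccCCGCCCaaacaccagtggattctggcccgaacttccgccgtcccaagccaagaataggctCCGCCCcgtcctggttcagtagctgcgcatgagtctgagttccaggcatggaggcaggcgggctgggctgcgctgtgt
Cabp1: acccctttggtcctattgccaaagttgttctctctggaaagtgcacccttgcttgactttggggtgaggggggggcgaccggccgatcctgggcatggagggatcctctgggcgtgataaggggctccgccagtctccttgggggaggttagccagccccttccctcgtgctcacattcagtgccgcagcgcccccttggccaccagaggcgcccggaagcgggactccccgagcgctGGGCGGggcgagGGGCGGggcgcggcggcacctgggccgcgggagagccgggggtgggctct
Cacna2d1: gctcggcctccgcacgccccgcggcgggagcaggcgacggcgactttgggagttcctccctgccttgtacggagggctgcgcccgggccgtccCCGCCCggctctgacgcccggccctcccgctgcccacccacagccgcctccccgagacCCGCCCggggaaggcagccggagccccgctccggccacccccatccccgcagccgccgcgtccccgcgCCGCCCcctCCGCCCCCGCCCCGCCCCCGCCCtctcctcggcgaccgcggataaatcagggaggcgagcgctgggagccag

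The 4 other genes called in aged brain stood without a call in littermates. Of all 5, 4 had the same direction in littermates, against 55.0% of the 10193 genes, and Rab26 alone passed an unadjusted p below 0.05 there. The 4 include Arhgef25, whose littermate value near 0 took the other sign in 6 of 10 fits with 1 library left out. Arhgef25 encodes an exchange factor that activates small GTPases of the cytoskeleton. Arhgef25 in aged brain stood at 129.7, 134 and 139.9 CPM with vehicle and 154.2, 168 and 180.1 CPM with Cmpd60. Littermate Arhgef25 levels were 166, 152, 133, 141.1 and 119.9 CPM with vehicle and 107, 146.9, 153, 163 and 148.7 CPM with Cmpd60. All treated aged libraries lay above all vehicle libraries, whereas the littermate groups overlapped, with s152 lowest of all. Arhgef25 rose in aged brain by 0.32 ± 0.0494 (SE, adjusted p = 0.0392) against 0.00 ± 0.114 in littermates (SE), a value that was negative with other scalings and 0.09 without s152. The effects differed by 0.31 (95% interval 0.05 to 0.57, unadjusted p = 0.0173, adjusted p = 0.609), and without s152 by 0.22 (unadjusted p = 0.0342).

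Lgals3bp encodes a secreted glycoprotein that binds galectin-3 and is induced in inflammation. Lgals3bp in aged brain stood at 22.5, 24.5 and 25.9 CPM with vehicle and 27.8, 32.9 and 40.5 CPM with Cmpd60. Littermate Lgals3bp levels were 17.1, 13.9, 22.9, 10.4 and 41.4 CPM with vehicle and 21.9, 20.9, 15.5, 15.2 and 15.8 CPM with Cmpd60. Again the aged groups were separate, while in littermates vehicle library s155 was the highest of all and the rest overlapped. Lgals3bp rose in aged brain by 0.48 ± 0.0789 (SE, adjusted p = 0.0423), against -0.25 ± 0.312 in littermates (SE). The difference was 0.72 (95% interval 0.07 to 1.37, unadjusted p = 0.0278). Without library s155 the littermate value was 0.15 and the difference 0.34 (unadjusted p = 0.132).

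Fabp7 carries fatty acids in radial glia and in astrocytes. Fabp7 in aged brain stood at 22.2, 32.7 and 45.9 CPM with vehicle and 12.3, 17.7 and 19.6 CPM with Cmpd60. Littermate Fabp7 levels were 10.5, 9.23, 23.9, 16.9 and 23.8 CPM with vehicle and 18.4, 7.85, 9.64, 11.5 and 22.9 CPM with Cmpd60. Each treated aged library lay below each vehicle library, and the littermate groups overlapped almost fully. Fabp7 fell in aged brain (log2 fold change -0.91 ± 0.143, SE, adjusted p = 0.0392), against -0.27 ± 0.346 in littermates (SE). The difference was -0.66 (95% interval -1.43 to 0.12), an interval that includes 0 and also a difference larger than the aged effect. With 1 library left out, the difference ran from -0.82 to -0.39 and passed an unadjusted p below 0.05 in 3 of 22 fits. The littermate effect of Fabp7 then ran from -0.51 to -0.11. Hcn4 forms the slow pacemaker channel found in thalamic relay cells. Hcn4 in aged brain stood at 20.6, 20.8 and 21.4 CPM with vehicle and 13.8, 15.2 and 18.0 CPM with Cmpd60. Littermate Hcn4 levels were 19.2, 19.9, 16.6, 17.1 and 35.7 CPM with vehicle and 26.5, 17.0, 19.1, 14.6 and 20.0 CPM with Cmpd60. Aged groups were separate, and in littermates vehicle library s155 and treated library s152, which held the fewest genes, were the highest of their groups. Hcn4 fell in aged brain (-0.42 ± 0.0682, SE, adjusted p = 0.0423), against -0.17 ± 0.243 in littermates (SE). Its effects differed by -0.26 (95% interval -0.76 to 0.24), and without library s155 by -0.50 (unadjusted p = 0.00911), with a littermate value of 0.09. Without library s152 they differed by -0.13 (unadjusted p = 0.566), with a littermate value of -0.31.

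Differences between the cohorts were ranked by p. At an unadjusted p below 0.05, 224 of the 10193 genes (2.2%) had a positive difference, a more positive effect in aged brain, and 354 (3.47%) a negative one. That balance depended on scaling: 38.8% were positive with TMM, 54.0% with DESeq2 size factors in edgeR (325 and 277) and 54.4% with DESeq2 itself (400 and 335). Aqp4 showed the smallest p among the 10193. It encodes the water channel that lines astrocyte endfeet around vessels and serves fluid exchange. Aqp4 in aged brain stood at 145.04, 160.0 and 169 CPM with vehicle and 132, 143.7 and 176 CPM with Cmpd60. Littermate Aqp4 levels were 124, 118, 136, 119 and 132 CPM with vehicle and 195, 182, 191, 177 and 148.04 CPM with Cmpd60. All treated littermate libraries lay above all vehicle libraries, while treated aged libraries lay on both sides of the vehicle libraries. Aqp4 was higher by 0.50 ± 0.0918 in littermates (SE, unadjusted p = 6.3e-05), against -0.08 ± 0.0668 in aged brain (SE, unadjusted p = 0.264). The effects differed by -0.58 ± 0.111 (SE, 95% interval -0.82 to -0.35, unadjusted p = 1.6e-05, adjusted p = 0.201). DESeq2 called the littermate effect and the difference (adjusted p = 0.00712 and 0.0156), and the difference of separate edgeR fits gave an adjusted p of 0.00835. Over all alternatives the unadjusted p of the difference ran from 3.9e-07 to 0.00170, the highest with a limma-voom variance per cohort, and its direction held in each. With any single library left out, the littermate effect was 0.46 to 0.56 and the difference -0.63 to -0.54.

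Lgr4 was also higher in littermates. It encodes a receptor for R-spondins, which strengthen Wnt signals. Lgr4 in aged brain stood at 37.2, 41.4 and 46.5 CPM with vehicle and 37.5, 39.4 and 40.2 CPM with Cmpd60. Littermate Lgr4 levels were 32.7, 39.1, 42.3, 35.4 and 32.2 CPM with vehicle and 61.9, 46.2, 50.1, 45.97 and 49.6 CPM with Cmpd60. The littermate groups did not overlap, with s152 highest, and the treated aged libraries all lay within the vehicle range. Lgr4 was higher by 0.47 ± 0.132 in littermates (SE, unadjusted p = 0.00265), and the effects differed by -0.58 (95% interval -0.85 to -0.30, unadjusted p = 1.4e-04, DESeq2 adjusted p = 0.0417). By edgeR this difference was not called. Unadjusted p of this difference ran from 1.2e-05 to 9.3e-04 over all alternatives. Cacna1g forms the low-voltage calcium channel behind burst firing in thalamus and cerebellum. Cacna1g in aged brain stood at 139.3, 157 and 166 CPM with vehicle and 129.9, 143.5 and 148.7 CPM with Cmpd60. Littermate Cacna1g levels were 141.9, 143.1, 148.4, 141.7 and 152 CPM with vehicle and 179.8, 152, 153, 168 and 169.8 CPM with Cmpd60. In littermates the lowest treated library barely passed the highest vehicle library, and in aged brain the groups overlapped in the other direction. Its effects of -0.14 and 0.17 differed by -0.32 (95% interval -0.50 to -0.14, edgeR unadjusted p = 8.2e-04, adjusted p = 0.522). With a limma-voom variance per cohort the unadjusted p was 0.0113.

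Among positive differences, Fibcd1 came first. It encodes a membrane receptor for acetylated sugars and marks pyramidal cells of hippocampal field CA1. Fibcd1 in aged brain stood at 20.2, 22.4 and 26.4 CPM with vehicle and 24.7, 31.9 and 45.2 CPM with Cmpd60. Littermate Fibcd1 levels were 39.9, 40.5, 27.2, 29.2 and 40.3 CPM with vehicle and 33.0, 29.6, 24.4, 35.8 and 24.6 CPM with Cmpd60. In aged brain 5 of 6 treated libraries lay above all vehicle libraries, and in littermates 2 of 5 lay below all of them. Fibcd1 was higher by 0.61 ± 0.125 in aged brain (SE, adjusted p = 0.0868), against -0.28 ± 0.171 in littermates (SE), a difference of 0.88 (95% interval 0.42 to 1.33, unadjusted p = 3.9e-04). By edgeR this difference was not called, and its unadjusted p was 0.0167 with a limma-voom variance per cohort. Sowaha encodes an ankyrin repeat protein of little-known function. Sowaha in aged brain stood at 71.6, 72.5 and 77.5 CPM with vehicle and 75.5, 87.1 and 92.4 CPM with Cmpd60. Littermate Sowaha levels were 77.4, 96.3, 77.7, 75.4 and 108 CPM with vehicle and 44.7, 66.8, 69.5, 82.2 and 68.4 CPM with Cmpd60. Treated libraries were mostly above vehicle in aged brain and, except s157, below it in littermates. The effects differed by 0.61 (95% interval 0.28 to 0.94, edgeR unadjusted p = 6.7e-04, adjusted p = 0.522). Anxa7 encodes an annexin that binds membranes in the presence of calcium. Anxa7 in aged brain stood at 67.3, 71.9 and 78.9 CPM with vehicle and 74.5, 81.2 and 85.1 CPM with Cmpd60. Littermate Anxa7 levels were 83.4, 83.4, 83.9, 92.7 and 85.8 CPM with vehicle and 70.4, 76.8, 74.6, 78.5 and 75.3 CPM with Cmpd60. All treated littermate libraries lay below all vehicle libraries, and 4 of 6 treated aged libraries lay above. The effects of 0.14 and -0.20 differed by 0.33 (95% interval 0.15 to 0.52, unadjusted p = 8.5e-04, edgeR adjusted p = 0.522, DESeq2 adjusted p = 0.0156). The unadjusted p of this difference ran from 1.7e-06 to 0.0135 over all alternatives.

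Further differences under the naming rule were of similar size. Negative differences included Sfxn5, a carrier of the mitochondrial inner membrane (-0.21 aged, 0.17 littermate, unadjusted p = 9.4e-04 for the difference). Nalcn, the sodium leak channel that sets resting excitability, had values of -0.16 and 0.20 (unadjusted p = 0.00105), and the translation factor Eif5a2 -0.17 and 0.24 (unadjusted p = 0.00131). Positive differences included Brd9, a bromodomain reader of acetylated histones in BAF chromatin remodellers (0.11 and -0.32, unadjusted p = 9.4e-04). All 5 treated littermate libraries lay below vehicle for Brd9. Arpc3 of the actin-branching Arp2/3 complex had effects of 0.09 and -0.35 (unadjusted p = 0.00158). Pop4, a subunit of the RNA-processing enzymes RNase P and RNase MRP, was lower in littermates only (0.02 and -0.90, unadjusted p = 0.00167), again with no overlap there.

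An unadjusted p below 0.05 in both cohorts with opposite directions was reached by 9 genes. Macroh2a2, a histone variant of silent chromatin, was lower in aged and higher in littermate brain (-0.23 and 0.62). The same order held for Cacna1g, Eif5a2, the mRNA export adaptor gene Alyref (-0.19 and 0.43) and Arhgap5, which switches off small GTPases (-0.10 and 0.26). Crym, a thyroid hormone binding protein, was higher in aged and lower in littermate brain (0.25 and -0.40). Sowaha, Anxa7 and Gas2l1, which links actin and microtubules (0.10 and -0.44), shared that order. With 1 library left out, the littermate p missed 0.05 in 7 of 10 fits for Cacna1g, 8 of 10 for Eif5a2 and 3 of 10 for Anxa7, and the count of 9 was 5 to 20. Unadjusted p for their differences lay between 6.7e-04 and 0.00863 and adjusted p between 0.522 and 0.583. Having passed with opposite signs in each cohort, these genes had to differ, so these p are a description.

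Other genes with the smallest p in littermates varied in function and in their aged effects. Kcnip3 encodes a calcium sensor that modulates potassium channels and represses transcription. Littermate Kcnip3 levels were 108, 97.8, 128, 86.6 and 86.3 CPM with vehicle and 156, 133, 121, 135 and 132 CPM with Cmpd60, and 4 of 5 treated libraries lay above vehicle. Its effects of 0.03 in aged and 0.41 in littermate brain differed by -0.39 (95% interval -0.65 to -0.13, unadjusted p = 0.00400). Dennd5b, which activates Rab GTPases, had effects of 0.07 and 0.31, and Tbpl1, a relative of the TATA-binding protein, 0.06 and 0.42, both without overlap in littermates. Gm10241, a predicted gene, had effects of -0.12 and 0.68. Lower in littermates were Cdk11b, a kinase of transcription and splicing (-0.01 and -0.32), and Kif5a, a motor of axonal transport (-0.06 and -0.25). Ndufs5 of complex I had effects of -0.13 and -0.54. Sumo2, a protein tag, had effects of 0.62 and -0.91, with aged libraries spread from 9.28 to 48.7 CPM in the treated group.

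In aged brain the genes of next smallest p missed the adjusted threshold. C4b encodes a complement component that tags synapses for removal and increases with age. C4b in aged brain stood at 85.5, 92.7 and 106 CPM with vehicle and 101, 133 and 146.1 CPM with Cmpd60. Littermate C4b levels were 122, 83.2, 159, 26.5 and 156 CPM with vehicle and 32.1, 173, 107, 94.3 and 89.4 CPM with Cmpd60. Treated aged libraries were nearly separate from vehicle, and littermate levels were scattered over a wide range in both groups. C4b was higher by 0.46 ± 0.0788 in aged brain (SE, adjusted p = 0.0516), and the effects differed by 0.60 (95% interval -0.30 to 1.51). That difference was 0.38 without s152 and 0.92 without s153, and passed an unadjusted p below 0.05 in 2 of 22 fits with 1 library left out. The littermate effect of C4b, -0.15, took the other sign in 3 of 10 such fits. Acsf2, a mitochondrial enzyme that activates fatty acids, was higher by 0.35 in aged (adjusted p = 0.0602) and 0.41 in littermate brain (unadjusted p = 0.0777), with a difference of -0.06 (95% interval -0.49 to 0.37). Myadm, a membrane protein of lipid rafts, had effects of 0.35 and 0.18. Ptch1, the receptor for Hedgehog ligands, was lower in aged brain (-0.31, littermate -0.07, unadjusted p = 0.0431 for the difference, above 0.05 in 16 of 22 fits with 1 library left out). Adarb1, which edits glutamate receptor transcripts, was lower in aged brain only (-0.21 and 0.05, unadjusted p = 0.00507 for the difference). The pseudogenes Gm10052 (-0.31 and -0.07) and Rpl34-ps1 (-0.39 and -0.25) were also lower, and their reads cannot be separated with certainty from those of their parent genes.

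Gene groups were compared over the genes with at least 10 CPM in both cohorts. Over all 10193 genes the median log2 fold change was -0.01 in aged and 0.00 in littermate brain, and the shares at an unadjusted p below 0.05 are those given above. The nuclear genes of oxidative phosphorylation, which supply most subunits of the respiratory chain, were mostly below 0 in both cohorts. Of 75 genes, 0 were higher and 30 lower in aged brain and 0 were higher and 7 lower in littermates at an unadjusted p below 0.05 (by edgeR, as for all groups). Median log2 fold changes were -0.13 and -0.10, with 72 and 59 of 75 below 0 and 57 below 0 in both. With 1 library left out the medians were -0.168 to -0.0939 and -0.159 to -0.0735. Their median exon length was 1322 bases against 4173 for all genes, and the part of length in their effects was not tested. Those that passed in both cohorts were Ndufa13, Ndufb10 and Uqcrq. Summed levels of the 78 listed genes, of which Atp5b was the most abundant and none was at 0, were 8384, 9494 and 10553 CPM in aged brain with vehicle and 8036, 8808 and 9269.8 CPM with Cmpd60. Littermate sums were 8517, 8868, 9013, 9034 and 8933 CPM with vehicle and 8686, 7679, 7959.8, 9257 and 8586 CPM with Cmpd60. The sums overlapped in both cohorts, with s153 and s156 low among the littermates and s157 above all vehicle libraries.

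The share of reads that fell on no annotated gene moved with these sums in aged brain. It was 7.17, 7.87 and 10.98% with vehicle and 8.56, 8.73 and 10.16% with Cmpd60 in aged brain (lowest, median and highest). Littermate shares were 4.76, 4.98, 5.47, 4.49 and 5.90% with vehicle and 6.00, 6.63, 5.69, 4.03 and 5.72% with Cmpd60. In aged brain libraries 29, 34 and 33 had the highest shares and the lowest respiratory sums, and library 30 the lowest share and the highest sum. Littermate library s153 combined the highest share with the lowest sum and s157 the reverse, but s152 and s155, next in share to s153, had sums of 8686 and 8933 CPM and s149, of low share, 8517 CPM. The part of this share in the respiratory result was not tested.

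Of the 75 respiratory genes, 2 had a positive and 1 a negative difference at an unadjusted p below 0.05, against 2.2% and 3.47% of all genes. Ndufa12 of complex I had effects of 0.23 and -0.53, a difference of 0.75 ± 0.248 (SE, unadjusted p = 0.00561). Ndufs5 had a difference of 0.40 and Ndufs1 of -0.20, the only other genes of the 75 that passed an unadjusted p below 0.05. Ndufb8 (-0.39 and -0.27), Ndufa3 (-0.38 and -0.26) and the ATP synthase gene Atp5e (-0.37 and -0.28) were among the lowest in aged brain and were below 0 in littermates too. The aged count of 30 was 15 without vehicle library 30 and 49 without vehicle library 29, and the littermate count of 7 was 3 without Cmpd60 library s153 and 14 without s152. With the number of detected genes as a covariate, which nearly followed treatment in aged brain, the aged count was 2.

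Protein subunits of the cytosolic ribosome were mostly below 0 in both cohorts as well. Of 75 genes, 1 was higher and 10 lower in aged brain and 1 was higher and 8 lower in littermates, with medians of -0.08 and -0.13 and 54 below 0 in both. With 1 library left out the medians were -0.117 to -0.0372 in aged and -0.183 to -0.0684 in littermate brain. These genes were short too, with a median exon length of 1464 bases. Rplp1 and Rps26 passed in both cohorts, Rps26 with effects of -0.16 and -0.49. Rps29 was lowest in aged brain (-0.44 and -0.07), and Rps15a was higher in littermates (-0.03 and 0.26), a difference of -0.30 (unadjusted p = 0.0168). Summed levels of 78 matched genes, Rpl4 the most abundant, were 8419, 9724 and 10955 CPM in aged brain with vehicle and 7777, 9296 and 10472 CPM with Cmpd60. Littermate sums were 8057, 8875, 8290.2, 9380.5 and 7942 CPM with vehicle and 8966, 6942, 7382, 8575 and 7964 CPM with Cmpd60. Ribosomal sums overlapped in both cohorts. In aged brain they were lowest in libraries 33, 29 and 34, of highest share of reads on no annotated gene, and highest in 30, of lowest share. Littermate library s153 had the lowest sum and the highest share, but s152, next in share, had 8966 CPM. The part of that share in the ribosomal result was not tested. The aged count of 10 lower genes was 4 without Cmpd60 library 33 and 28 without 36, and the littermate count of 8 was 4 without s153, 23 without s152 and 26 without s152 and s155.

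Genes encoded in the mitochondrial genome itself had medians above 0. Of 10 genes measured among its 13, 5 were higher and 1 lower in aged brain and 0 were higher and 0 lower in littermates, with medians of 0.14 and 0.10. In aged brain 6 were above 0 and 4 below, and in littermates all 10 were above 0, where 2 passed without vehicle library s149. Medians with 1 library left out were 0.0963 to 0.175 and 0.0587 to 0.173. With Cmpd60 in aged brain, mt-Nd4 of complex I (0.28 and 0.25), mt-Co1 of cytochrome oxidase (0.22 and 0.15) and mt-Nd5 (0.20 and 0.09) were higher, and mt-Atp6 (-0.23 and 0.05) was lower. Summed levels of the 13 genes were 22575, 26868 and 29553 CPM with vehicle and 27848, 30559 and 34265 CPM with Cmpd60 in aged brain. Littermate sums were 20683, 15456, 16359.8, 16599.8 and 15517 CPM with vehicle and 15964, 22522, 20749, 16824 and 17372 CPM with Cmpd60. In aged brain 4 of 6 treated libraries lay above vehicle, in littermates 2 of 5, and the differences passed for 0 of 10 genes (unadjusted p below 0.05).

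Synaptic genes lay on both sides of 0. Of 34 genes of vesicles and release, 9 were higher and 1 lower in aged brain and 2 were higher and 0 lower in littermates, with medians of 0.05 and 0.04. Above 0 were 25 of 34 in aged and 20 of 34 in littermate brain, and 23 had the same direction. Syn1, which tethers vesicles to actin, had effects of 0.23 and 0.06, and Snap25 0.13 and 0.15. Cplx1, a clamp on fusion, had effects of -0.12 and -0.14 and did not pass in littermates. Of the 34 genes, 2 had a negative difference at an unadjusted p below 0.05, among them Syt4, a regulator of vesicle release (-0.19). Among 24 glutamate receptor subunits, 4 were higher and 5 lower in aged brain and 0 were higher and 2 lower in littermates, with 12 above 0 in each cohort. Gria2 (0.29 and 0.10) and Gria3 (0.25 and 0.17) were higher, and Grm4 (-0.45 and -0.02) was lower in aged brain. Gria4 had effects of -0.15 and 0.14 (unadjusted p = 0.00855 for the difference). The cohorts also differed at an unadjusted p below 0.05 for Gria1 (0.06 and -0.26) and Grik1 (0.03 and -0.71). Of 13 GABA-A receptor subunits, 2 were higher and 1 lower in aged brain and 3 were higher and 0 lower in littermates. Gabra6, confined to cerebellar granule cells, differed by -0.64 (unadjusted p = 0.0321).

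Activity-dependent and clock genes were read against all genes, of which 8.68% were higher in aged brain and 1.59% in littermates at an unadjusted p below 0.05. Immediate early genes are transcribed within minutes of neuronal firing. Of 21 such genes, 8 were higher and 0 lower in aged brain and 0 were higher and 0 lower in littermates, with medians of 0.15 and 0.08. Nr4a2 (0.44 and -0.02), Junb (0.41 and 0.14) and Arc, which remodels synapses (0.40 and 0.17), were highest in aged brain, and none of the 21 differed between cohorts at an unadjusted p below 0.05. Summed levels, with Homer1 the most abundant, were 996, 1068 and 1282 CPM with vehicle and 1054, 1181 and 1502 CPM with Cmpd60 in aged brain. Littermate sums were 873, 1045, 1261, 968 and 1101 CPM with vehicle and 929, 1047, 1023, 1215 and 1213 CPM with Cmpd60. Both cohorts overlapped, and in aged brain treated libraries 33 and 34 alone lay above vehicle library 29. Libraries 33, 34 and 29 also had the highest shares of reads on no annotated gene (9.46, 10.16 and 10.98%). In littermates s153, of highest share, had a sum of 1047 CPM and s157, of lowest share, 1215 CPM. Library 33 was also highest in markers of excitatory cortical neurons (5202 CPM). The part of that share and of these markers in the result was not tested. The aged count of 8 was 3 without library 33, and the littermate count was 4 without vehicle library s151. The littermate median was 0.0202 without s149.

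Clock genes form a transcription loop with a period of about a day. Of 16, 8 were higher and 0 lower in aged brain and 1 was higher and 0 lower in littermates, with medians of 0.17 and 0.08. Dbp, an output factor of the clock, differed between cohorts (0.34 and -0.11, unadjusted p = 0.0292). Bhlhe41, a repressor within the clock, differed the other way (0.01 and 0.59, unadjusted p = 0.00670). Per2 had effects of 0.30 and -0.10 and Tef, the most abundant of the list, 0.24 and 0.10. Summed levels were 1356, 1412 and 1519 CPM with vehicle and 1412, 1569 and 1797 CPM with Cmpd60 in aged brain. Littermate sums were 1465, 1632, 1602, 1511 and 1620.0 CPM with vehicle and 1601, 1691, 1679, 1714 and 1695 CPM with Cmpd60. In both cohorts 4 treated libraries lay above all vehicle libraries. For aged brain the count of 8 was 5 without library 33 or 34 and in the fit of all 22 libraries, and the littermate median was 0.0381 without s149.

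Stress and metabolic lists varied in how many genes passed. Of 13 hypoxia-response targets, 5 were higher and 0 lower in aged brain and 0 were higher and 0 lower in littermates, against 8.68% of all genes higher in aged brain, with Vegfa, the growth factor of vessels, at 0.35 and 0.00 and the lactate enzyme gene Ldha at 0.19 and -0.06. Of 10 heat shock proteins, 0 were higher and 1 lower in aged brain and 0 were higher and 1 lower in littermates: Hspe1, the mitochondrial co-chaperone, in aged brain (-0.28) and Hsp90ab1 in littermates (-0.15). Of 18 genes induced by glucocorticoids, 1 was higher and 0 lower in aged brain and 0 were higher and 0 lower in littermates, the first being Pdk4, which limits glucose oxidation (0.22 and 0.05). Of 14 genes of the integrated stress response, 1 was higher and 2 lower in aged brain and 0 were higher and 0 lower in littermates, and the folate enzyme gene Mthfd2 differed (0.05 and -0.62, unadjusted p = 0.0289). Of 17 genes of cholesterol synthesis and uptake, 0 were higher and 1 lower in aged brain and 0 were higher and 0 lower in littermates. For 4 measured interferon-stimulated genes of 19, Lgals3bp alone passed.

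All 5 nuclear noncoding RNAs measured passed as higher in aged brain and 1, Neat1, in littermates. Neat1, which builds paraspeckles, had effects of 0.23 and 0.62, and Malat1 of speckles 0.30 and 0.20. Summed levels, with Meg3 the most abundant, were 2999, 3812 and 6928 CPM with vehicle and 5180.1, 5443 and 6678 CPM with Cmpd60 in aged brain. Littermate sums were 2016, 1698, 2103, 1614 and 2330.3 CPM with vehicle and 2718, 2974, 2142, 1342 and 2174 CPM with Cmpd60. Vehicle library 29 exceeded every treated aged library, the other 5 vehicle libraries lay below them all, and the littermate groups overlapped. The share of reads on no annotated gene moved with these sums too: libraries 29 and 34 were highest and 30 and 32 lowest in both values, and among littermates s153 was highest and s157 lowest. The part of that share in this result was not tested.

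Markers of brain regions were compared next. In bulk tissue, fewer cells of a type, less RNA per cell and an unequal share of regions in the piece taken cannot be told apart. The brain region taken was not stated. Cerebellar markers were all below 0 in aged brain: of 11 genes, 0 were higher and 9 lower in aged brain and 0 were higher and 0 lower in littermates, with medians of -0.44 and 0.02 (littermate -0.01 by limma-voom). Summed levels, with Car8 the most abundant, were 942, 1084 and 1457 CPM with vehicle and 501, 774 and 1171 CPM with Cmpd60 in aged brain. Littermate sums were 1089, 1576, 1279, 965 and 1071 CPM with vehicle and 1477, 1139, 1123, 1409.5 and 1005 CPM with Cmpd60. Treated aged libraries 33, 34, 35 and 37 lay below all vehicle libraries while 36 and 38 lay among them, and the littermate groups overlapped fully. The aged count of 9 was 5 without library 33 and 10 without 36, and the littermate median ran from -0.0824 without s152 to 0.109 without s150. En2, a patterning factor of the hindbrain, stood at 20.6, 24.7 and 29.9 CPM with vehicle and 9.79, 15.8 and 21.4 CPM with Cmpd60 in aged brain. Littermate En2 levels were 25.8, 42.3, 25.6, 22.5 and 19.5 CPM with vehicle and 13.1, 20.5, 20.2, 27.8 and 21.0 CPM with Cmpd60, with effects of -0.67 and -0.41 in the cohorts. Zic1 of granule cells differed between cohorts (-0.51 and 0.15, unadjusted p = 0.0134), as did Gabra6.

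Thalamic markers were all below 0 in aged brain as well. Of 7 genes, 0 were higher and 4 lower in aged brain and 0 were higher and 1 lower in littermates, with medians of -0.44 and 0.09. Summed levels, with the kinase gene Prkcd (-0.64 and -0.18) the most abundant, were 205, 233 and 369.8 CPM with vehicle and 128, 169 and 233 CPM with Cmpd60 in aged brain. Littermate sums were 279.8, 244, 242, 263 and 166 CPM with vehicle and 365, 193, 230.3, 174 and 210.4 CPM with Cmpd60. Treated aged library 33 was lowest and vehicle library 30 highest, and among littermates treated library s152 was highest and vehicle library s155 lowest. The littermate median was -0.0184 without s152, where 2 markers were lower, 0.11 without s155 and 0.189 without s157. Rgs16, which turns off G protein signals, differed between cohorts (-0.48 and 0.47, unadjusted p = 0.0365), and Zic4 did too (-0.23 and 0.36, unadjusted p = 0.0424). Ramp3 and Hcn4, described above, are both transcribed in thalamus, and the part of these regional markers in the gene results was not tested.

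Markers of excitatory cortical neurons were above 0 in aged brain for 11 of 12 genes. Of 12 genes, 5 were higher and 0 lower in aged brain and 1 was higher and 0 lower in littermates, with medians of 0.22 and 0.03. Camk2a, the kinase of synaptic plasticity, stood at 1362, 1586 and 1670.0 CPM with vehicle and 1713, 1933 and 2530.1 CPM with Cmpd60 in aged brain. Littermate Camk2a levels were 2078, 1967, 1698, 2004 and 1890.3 CPM with vehicle and 1772, 2206, 2179, 2005 and 1963 CPM with Cmpd60. The aged groups were separate and the littermate groups overlapped, and effects of 0.39 and 0.06 differed by 0.32 (95% interval 0.05 to 0.58, unadjusted p = 0.0179). Summed levels of the list, with Camk2a the most abundant, were 3278, 3449 and 3589.5 CPM with vehicle and 3669, 3939 and 5202 CPM with Cmpd60 in aged brain. Littermate sums were 3847, 3909, 3422, 3752 and 3841 CPM with vehicle and 3556, 3880.1, 4076, 3982 and 3929.9 CPM with Cmpd60. All treated aged sums exceeded all vehicle sums, with 33 and 37, low in cerebellar markers, highest. The aged count of 5 was 2 without library 33, 8 without 36 and 3 with DESeq2 size factors, and the aged median was 0.118 without library 33. In littermates the median ran from -0.00695 without s154 to 0.0798 without s152, and the count of 1 was 0 without s156.

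**Figure D3:**
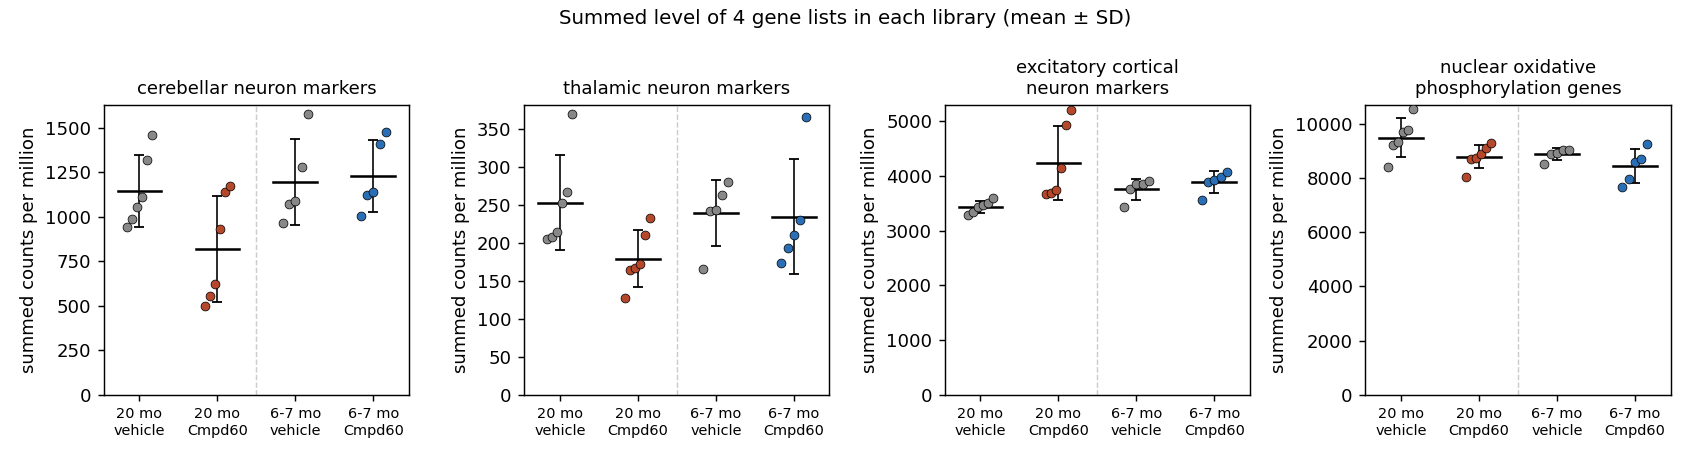
Summed CPM of cerebellar, thalamic and excitatory cortical neuron markers and of nuclear oxidative phosphorylation genes in each library, with bars at mean ± SD. In aged brain mean cerebellar and thalamic sums are lower with Cmpd60, with overlap between the groups, and all treated cortical sums lie above vehicle. The littermate groups overlap.

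Striatal, hippocampal and inhibitory markers followed. Of 10 markers of striatal medium spiny neurons, 0 were higher and 0 lower in aged brain and 0 were higher and 1 lower in littermates, while 9 of 10 were above 0 in aged brain and all 10 below 0 in littermates (medians 0.13 and -0.20). The aged median was 0.00242 without Cmpd60 library 35, and the littermate median -0.0873 without vehicle library s150 and -0.333 without Cmpd60 library s157. The littermate count was 4 without vehicle library s154, 3 without s157, 2 without s149 and 0 without s150, s152, s155, s156 or s158, and the aged count was 2 without vehicle library 30 and 1 without Cmpd60 library 38. Summed levels, led by the dopamine signalling gene Ppp1r1b, were 847, 981 and 1243 CPM with vehicle and 863, 977 and 1463 CPM with Cmpd60 in aged brain. Littermate sums were 1038, 1620.2, 1177, 909 and 1237 CPM with vehicle and 932, 1022, 939.7, 1347 and 933 CPM with Cmpd60. Both cohorts overlapped, and s157 alone among treated littermate libraries was above 1022 CPM. The dopamine receptor gene Drd1 (0.16 and -0.37, unadjusted p = 0.0391 for the difference) and Rasd2 (0.17 and -0.18, unadjusted p = 0.0388) differed between cohorts. Of 4 hippocampal markers, 2 were higher and 0 lower in aged brain and 0 were higher and 0 lower in littermates: Fibcd1 and Wfs1, an endoplasmic reticulum protein of CA1 (0.20 and -0.17, unadjusted p = 0.00729 for the difference), with 2 of 4 in the same direction. Of 11 markers of inhibitory neurons, 0 were higher and 2 lower in aged brain and 0 were higher and 0 lower in littermates, 6 had the same direction, and Gad1, which makes GABA, differed (-0.09 and 0.16, unadjusted p = 0.0136).

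Glial and vascular markers were on both sides of 0. Of 12 astrocyte markers, 1 was higher and 4 lower in aged brain and 1 was higher and 0 lower in littermates, and 3 had a negative difference. Beside Aqp4 these were the zinc transporter gene Slc39a12 (-0.20 and 0.25, unadjusted p = 0.00715) and the bicarbonate transporter gene Slc4a4 (-0.18 and 0.09, unadjusted p = 0.0117). Summed astrocyte levels in aged brain were 4921, 5024 and 5228 CPM with vehicle and 5107, 5244 and 5383 CPM with Cmpd60. Littermate astrocyte sums were 5677, 5254, 5163, 4967 and 4904 CPM with vehicle and 5114, 6281, 6301, 5833 and 5039 CPM with Cmpd60. Treated littermate libraries s153, s156 and s157 lay above every vehicle library. Of 12 oligodendrocyte markers, 0 were higher and 3 lower in aged brain and 0 were higher and 0 lower in littermates. Of 7 markers of oligodendrocyte precursors, 1 was higher and 2 lower in aged brain and 1 was higher and 0 lower in littermates, with Olig2 at -0.32 and -0.03 and Gpr17 at 0.31 and -0.10. Of 8 microglial markers, 0 were higher and 0 lower in aged brain and 0 were higher and 1 lower in littermates, the latter Tmem119 (-0.10 and -0.61). Of 9 endothelial markers, 2 were higher and 1 lower in aged brain and 0 were higher and 0 lower in littermates, with the VEGF receptor gene Flt1 at 0.36 and 0.14 and Ly6c1 at 0.37 and -0.19 (unadjusted p = 0.0395 for the difference). Of 6 mural markers, 2 were higher and 0 lower in aged brain and 1 was higher and 0 lower in littermates, with Abcc9 in both.

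**Figure D4:**
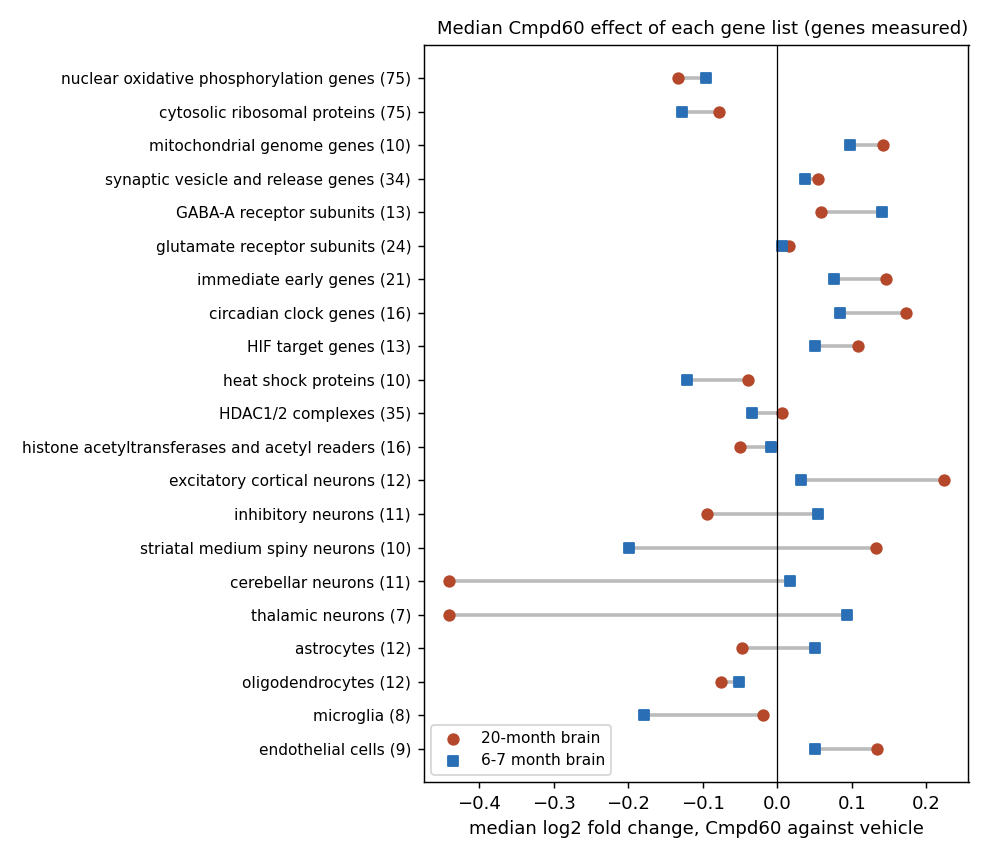
Median log2 fold change with Cmpd60 in aged brain (circles) and littermate brain (squares) for 21 gene lists, with the number of genes measured in brackets. Respiratory and ribosomal lists lie below zero and mitochondrial genome genes above zero in both cohorts, while cerebellar, thalamic and striatal markers lie apart.

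Markers of tissue outside and at the edge of the brain were few. Growth hormone, Gh, marks pituitary cells. Gh in aged brain stood at 0, 0.156 and 2.69 CPM with vehicle and 0, 0.0312 and 490.0 CPM with Cmpd60. Littermate Gh levels were 3.84, 0, 49.0, 0.740 and 49.6 CPM with vehicle and 0, 0, 6.22, 338 and 0.773 CPM with Cmpd60. It was high in 1 treated library of each cohort, 35 and s157, and its log2 fold changes of 6.92 and 1.73 rest on them. Of 4 olfactory bulb markers, 0 were higher and 1 lower in aged brain and 0 were higher and 0 lower in littermates, Cdhr1 (-0.56 and 0.28). Of 3 meningeal markers, 1 was higher and 0 lower in aged brain and 0 were higher and 0 lower in littermates, the collagen-binding Dcn (0.26 and 0.35). No marker passed in either cohort among 3 hypothalamic neuropeptides, 4 choroid plexus genes, 1 ependymal, 2 blood and 1 lymphocyte gene, the members of these lists that reached 10 CPM.

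Exon length, which the choice of genes did not use, moved with the effects in both cohorts, and GC content in littermates. Spearman's correlation between log2 fold change and exon length was 0.18 in aged and 0.17 in littermate brain over 10033 genes (98.4%). For GC content it was -0.00 and -0.22 over 9925 genes (97.4%). The 23 genes lower in both cohorts, Ndufa13 and Rplp1 among them, had a median exon length of 2285 bases, against 5285 bases for the 28 higher in both and 4173 for all. In the fifth of genes with the shortest exons, 57 to 2420 bases, median effects were -0.04 in aged and -0.05 in littermate brain, and 60.5% of genes had the same sign (r = 0.24). In the fifth with the longest, 6883 to 30730 bases, medians were 0.01 and 0.05, and 54.2% had the same sign (r = 0.10). Genes share libraries, so no p is given, and the part of length in the shared direction was not tested.

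Genes selected in aged brain were then scored in each littermate library. The score, the mean log2 CPM of 312 genes higher minus that of 294 genes lower in aged brain at an unadjusted p below 0.01, was taken relative to the littermate mean. Littermate vehicle libraries scored 0.0461, -0.0829, -0.0580, -0.0853 and -0.0197. Littermate Cmpd60 libraries scored -0.196, 0.179, 0.119, 0.0557 and 0.0422. Treated libraries s153, s156 and s157 lay above all vehicle libraries, and s152 lay below all. Without s152, treated scores ran from 0.0422 to 0.179 against -0.0853 to 0.0461 with vehicle. Over all libraries, scores were 0.0400 ± 0.143 with Cmpd60 and -0.0400 ± 0.0549 with vehicle (SD, n = 5). The reverse score, from 162 higher and 161 lower littermate genes, was -0.197, -0.0509 and 0.0600 in aged vehicle and -0.0857, 0.00540 and 0.275 in aged Cmpd60 libraries (lowest, median and highest). Only treated libraries 33 and 34 exceeded the highest vehicle library, 29. Libraries 33, 34 and 29 had the highest shares of reads on no annotated gene (9.46, 10.16 and 10.98%). Vehicle library 30 had the lowest share (7.17%) and the lowest score. Among littermates s153 had the highest share and score, but s152, next in share, had the lowest score. The part of that share in the scores was not tested.

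Genes that the study had singled out across aged tissues were looked up last, and 3 of 5 reached 10 CPM in both cohorts. Mapk3, the kinase ERK1, had effects of 0.22 and 0.01, Tgm2, which crosslinks proteins, 0.25 and 0.05, and the sphingosine phosphate transporter gene Spns2 0.19 and -0.15. They were higher in aged brain at an unadjusted p below 0.05, a repeat of the same libraries and not independent evidence, and 0 of 3 passed in littermates. The effects on Spns2 differed by 0.33 (unadjusted p = 0.0424), a p above 0.05 in 7 of 22 fits with 1 library left out and 0.276 without s152 and s155. Mrps28 of the mitochondrial ribosome and the Wnt receptor gene Fzd8 were below 10 CPM, with effects of -0.34 and -0.56 and -0.36 and 0.58. Rab26 had the same direction in both cohorts, as did 58 of 75 respiratory and 58 of 75 ribosomal genes. The aged respiratory count of 30 was 2 with the number of detected genes as a covariate, which nearly followed treatment in aged brain. Over all 10193 genes 55.0% had the same direction, and 60.5% in the fifth with the shortest exons. Aqp4 and Lgr4, picked by smallest p, were higher at an unadjusted p below 0.05 in littermates only. By edgeR neither their littermate effects nor their differences were called. By edgeR 0 differences were called, with 1861 at an unadjusted p below 0.05, and DESeq2 called 7.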

How the data were processed

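The authors trimmed reads with Trimmomatic 0.32, aligned them with HISAT2 2.1.0 and counted them per gene with HTSeq 0.11.0, after quality control with FastQC. They re-annotated genes with Ensembl v91. The deposited counts of 54232 genes were used as they stood. The genome build was not given in the sources used here. Between 16.7 and 21.9% of reads per library were on summary lines and not on genes. Names were found for 32651 genes, 2615 of them brought to the current RefSeq symbol.

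Genes were tested where 3 or more libraries held over 2 counts each. They were scaled by TMM and tested with the edgeR 4.0.16 quasi-likelihood test in R 4.3.3, each cohort alone and, for the difference of effects, over all 22 libraries in 4 groups. The fit of 22 libraries took 1 spread for both cohorts, and the printed intervals of the differences rest on it. DESeq2 1.42.0 and limma 3.58.1 (voom) were alternatives. Other alternatives changed the scaling, the filter, the depth, the covariates and the libraries in the fit. P-values were adjusted by Benjamini-Hochberg over all genes tested, with calls at 0.05 and counts at unadjusted 0.05 and 0.01. Printed CPM use TMM factors over the 22 libraries, and the 10 CPM minimum uses those of each cohort. The random seed was 20231212. The tests were checked on simulated data. Libraries of a group differed beyond counting noise (chi-square per degree of freedom 5.79 to 114).

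Genes were named by rule: the 6 higher and 6 lower of smallest p in each cohort, in the difference and among genes past 0.05 in both cohorts with the same direction (by the larger p), 2 members of highest CPM and 2 of smallest p per list, Hdac1 to Hdac3, the 5 aged calls and 5 genes of the study. Lists covered deacetylase complexes, acetyltransferases, immediate early, clock, stress, hypoxia, interferon, cholesterol, synaptic, receptor, respiratory, mitochondrial and ribosomal genes, nuclear noncoding RNAs and markers of 20 cell types or tissues. The members and lists were chosen with earlier results of these data known.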

Additional observations from a re-analysis of the deposited data

Results flagged for a closer look

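In 140 groups of 5 or 6 libraries, the highest or lowest library was compared with the nearest other, and 21 stood out by Dixon's 95% critical value. Chance gives about 1 in 20 groups.

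Among aged vehicle libraries, number 30 stood out most often. It was high for Ramp3, at 28.1 CPM (nearest 16.9), for the sum of thalamic markers, at 369.8 CPM (nearest 267), and for Sowaha, at 77.5 CPM (nearest 73.7). It was low for Cacna2d1, at 167 CPM (nearest 185), and for Camk2a, at 1362 CPM (nearest 1579). Library 29 was high for the sum of immediate early genes, at 1282 CPM (nearest 1079), and library 27 for Hcn4, at 21.4 CPM (nearest 20.8). Among aged Cmpd60 libraries, number 35 was high for Gh, at 490.0 CPM (nearest 8.95), and number 33 had a low median correlation with its group, 0.987 (nearest 0.991).

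In littermate vehicle brain, library s155 had a low median correlation with its group, 0.910 (nearest 0.975), and was high for Hcn4, at 35.7 CPM (nearest 19.9), and Ramp3, at 24.1 CPM (nearest 17.2). Library s150 held 37844133 counts (nearest 27519596) and was high for En2, at 42.3 CPM (nearest 25.8). Anxa7 was high in s154, at 92.7 CPM (nearest 85.8), and the sum of mitochondrial genome genes in s149, at 20683 CPM (nearest 16599.8).

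In littermate Cmpd60 brain, library s152 had a low median correlation with its group, 0.912 (nearest 0.978), was low for Arhgef25, at 107 CPM (nearest 146.9), and high for Lgr4, at 61.9 CPM (nearest 50.1). Library s157 was high for Gh, at 338 CPM (nearest 6.22), and for the sum of striatal markers, at 1347 CPM (nearest 1022).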

How the results depend on the processing

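The aged count of 5 called genes was 1048 at an unadjusted p below 0.01, 429 with DESeq2, 2 with limma-voom, 102 with no filter on low counts, and 0 by edgeR both with the number of detected genes as a covariate and with all 22 libraries in 1 fit. It was 1 to 372 with each aged library left out in turn. DESeq2 size factors, a filter of 10 counts and thinned counts kept it within 1.5 times. The aged count at an unadjusted p below 0.01 was 470 with the covariate, 134 in the fit of 22 libraries and 731 to 1715 with a library left out. In aged brain the covariate nearly followed treatment.

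The littermate count of 0 was 69 at an unadjusted p below 0.01, 2 with DESeq2 and 2 in the fit of 22 libraries, and 0 by edgeR with each library left out or with the 10 transgenic libraries in the fit. The count of 69 was 121 with DESeq2, 171 with no filter, 40 with a filter of 10 counts, 113 with the covariate, 1068 in the fit of 22 libraries, 135 without libraries s152 and s155, and 32 to 108 with a library left out. Leaving out s152 and s155 together was chosen after seeing the data.

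The count of 0 differences was 422 at an unadjusted p below 0.01, 7 with DESeq2, 1 with no filter, 1 from separate fits, 3 without s152 and s155, and 0 to 4 with a library left out. The count of 422 was 224 with limma-voom, 230 with a filter of 10 counts, 111 with a limma-voom variance per cohort, 232 from separate fits, and 333 to 653 with a library left out.

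The share of genes with the same direction was 53.8% with the covariate, 59.1% without s152 and s155, and 52.9 to 57.5% with a library left out, against 55.0%. Pearson's r, 0.16, was 0.0470 with the covariate, 0.341 without s152 and s155, 0.112 at a minimum of 1 CPM, 0.205 at 30 CPM, and 0.0463 to 0.261 with a library left out. The 51 genes shared in direction were 109 without s152 and s155 and 29 to 94 with a library left out. The 9 opposite genes were 23 with the covariate, 7 without s152 and s155 and 5 to 20 with a library left out. For each of these shifts the cause was not tested.

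For 51 named genes, 153 results were recomputed, and 3423 values kept direction and side of the threshold, 136 lost the threshold, 41 passed it, 72 took the other sign where the main value had not passed and 0 where it had. No paired analysis was possible because replicate numbers are not shared between groups.

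Depth limited genes under about 0.0522 to 0.120 CPM. Age, line, cohort and batch cannot be told apart, the brain region was not given, and 5 or 6 mice of 1 sex per group bound each comparison. Littermate standard errors were 2.45 times those of aged brain, so a littermate effect that missed the threshold is not shown to be absent.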
